A study of Homo sapiens with 9 samples.

Results

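The IGF-binding proteins examined here are IGFBP2, IGFBP3, IGFBP4, IGFBP5, IGFBP6 and IGFBP7. The arrays measured 18417 genes under a single symbol, and all members except IGFBP6 were among them. The 6 members were chosen by gene symbol, with earlier results of these data known. Each was read from the brightest transcript cluster (the set of probes summarised for 1 gene) that carried its symbol alone. This gave 5 members with a value. IGFBP6 shares its only cluster with C12orf57, so the signal of that cluster cannot be assigned to either gene. The series used NCCIT, an established human line from an embryonal carcinoma, a germ cell tumour with pluripotent-like cells. In dishes that prevent attachment such cells round up into embryoid bodies, in which differentiation starts. Embryoid bodies were kept for 7 or 21 days with 50 mM ethanol plus an addition abbreviated FA, with ethanol, with FA, or with neither, and undifferentiated NCCIT cells served as the starting point. Each of these 9 conditions had 1 array. No source used here says what FA stands for or at which dose it was given. The labels describe a single tumour-derived line, give embryoid body formation with ethanol for 7 days only and do not describe the culture up to day 21.

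IGF-binding proteins are secreted proteins that bind the insulin-like growth factors IGF1 and IGF2. They extend the life of the growth factors outside the cell and control how much reaches the receptor IGF1R, so that the same protein can restrain or support growth depending on where it is and whether a protease has cut it. IGFBP2 is abundant in fetal tissue and in the developing nervous system. IGFBP3 and IGFBP5 can each form a larger complex with the growth factor and a further carrier, IGFALS. IGFBP4 is known mainly as an inhibitor of IGF action and is cut by the protease PAPPA. IGFBP6 prefers IGF2, and IGFBP7 binds the growth factors weakly and is often placed among the IGFBP-related proteins.

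The stretches of 250 bases upstream of the gene starts are printed for the 4 genes that changed between the days, because the members moved in opposite directions there. They are from RefSeq (GRCh38.p14) and are written 5′ to 3′ along the gene's strand. IGFBP5 lies on chromosome 2 and its stretch is chr2:216695550-216695799 on the minus strand. Its neighbour IGFBP2 is at chr2:216632578-216632827 on the plus strand, in the first of the 3 start sites that the table lists. IGFBP3 is at chr7:45921273-45921522 on the minus strand and IGFBP4 at chr17:40443200-40443449 on the plus strand. Capitals mark 3 patterns searched on both strands. They are the TATA box TATAAA, the TATA-like TATNTA and the GC box GGGCGG, which reads CCGCCC on the other strand.
IGFBP5: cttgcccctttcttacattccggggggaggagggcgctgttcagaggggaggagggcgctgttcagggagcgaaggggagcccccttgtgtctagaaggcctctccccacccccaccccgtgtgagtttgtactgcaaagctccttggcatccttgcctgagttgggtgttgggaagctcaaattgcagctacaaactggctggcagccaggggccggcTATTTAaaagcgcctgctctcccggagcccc
IGFBP2: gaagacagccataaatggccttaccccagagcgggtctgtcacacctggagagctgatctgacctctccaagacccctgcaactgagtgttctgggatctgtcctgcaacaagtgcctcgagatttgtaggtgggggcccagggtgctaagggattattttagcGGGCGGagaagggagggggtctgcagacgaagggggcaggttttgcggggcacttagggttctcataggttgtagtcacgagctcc
IGFBP3: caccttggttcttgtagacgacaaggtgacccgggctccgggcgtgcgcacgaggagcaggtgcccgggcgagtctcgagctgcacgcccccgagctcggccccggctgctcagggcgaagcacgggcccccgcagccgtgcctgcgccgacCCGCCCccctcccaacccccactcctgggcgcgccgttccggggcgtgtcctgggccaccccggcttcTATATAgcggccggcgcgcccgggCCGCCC
IGFBP4: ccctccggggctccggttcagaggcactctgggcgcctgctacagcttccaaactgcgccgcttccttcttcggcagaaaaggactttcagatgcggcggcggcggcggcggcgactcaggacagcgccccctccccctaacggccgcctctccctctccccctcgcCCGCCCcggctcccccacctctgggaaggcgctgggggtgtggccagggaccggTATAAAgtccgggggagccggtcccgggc

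IGFBP5 holds TATTTA with its first letter 31 bases before the start and no GC box. IGFBP2 holds a GC box 86 bases before the start and neither TATA pattern. IGFBP3 holds TATATA 30 bases before the start, which matches TATNTA on both strands, and CCGCCC at 98 and at 6 bases. IGFBP4 holds TATAAA at 29 bases and CCGCCC at 83 bases. Of 35116 promoter stretches of this length, 10.7% hold TATAAA, 20% hold TATNTA and 42.6% hold GGGCGG on either strand. TATNTA was added to the search after these promoters had been read. The share of G and C was 76.0% for IGFBP3, 71.6% for IGFBP4, 61.2% for IGFBP5 and 56.8% for the printed stretch of IGFBP2. At the second listed start site of IGFBP2 the share was 69.2%, with a GC box 49 bases before that start. The third had 56.4% and no GC box. IGFBP2 and IGFBP5 are direct neighbours on chromosome 2, with 0 protein-coding genes between them.

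Values are RMA expression values on a log2 scale, on which a difference of 1 is a 2-fold difference. They do not compare levels between genes, since probes differ in brightness. Over all clusters, each day 21 array had a mean r of 0.996 with the other arrays of its day. Day 7 arrays did so at 0.994 to 0.995, except the ethanol array lacking FA, at 0.990. Of 10 markers of pluripotent cells, 9 fell and LIN28B rose at day 21 relative to day 7, against 22.6% and 26.3% of all tested genes. The list mean was 11.5 in undifferentiated cells, 11.3 to 11.4 at day 7 and 9.91 to 10.2 at day 21. In these whole-aggregate RNA samples, fewer cells of a type and less RNA per cell cannot be told apart. With no replicated condition, error comes from a limma model fitted to all 9 arrays with terms for day, ethanol, FA and the undifferentiated array. It was fitted to 12254 genes, with p-values adjusted over all of them by the Benjamini-Hochberg method and a threshold of 0.05. Nothing in the labels says that the arrays came from separate cultures, so these p-values measure only the spread between arrays, which may be technical. That spread is the departure of single arrays from the sum of these terms. Any interaction of day, ethanol and FA that the model leaves out therefore adds to the error. All 5 members with a value were tested, since the highest value of each exceeded 7.71, the median of all values. IGFBP3 passed this filter only through its day 21 arrays and IGFBP5 only through embryoid bodies, so their inclusion was tied to the group in which they were higher.

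IGFBP5 and IGFBP2 rose as NCCIT cells formed embryoid bodies, and both were higher again at day 21 than at day 7. The fitted difference of IGFBP5 was 17.5-fold between day 21 and undifferentiated cells, where its signal was dim. IGFBP4 fell, IGFBP3 rose by little and late, and IGFBP7 did not pass the test at either day.

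**Figure D1:**
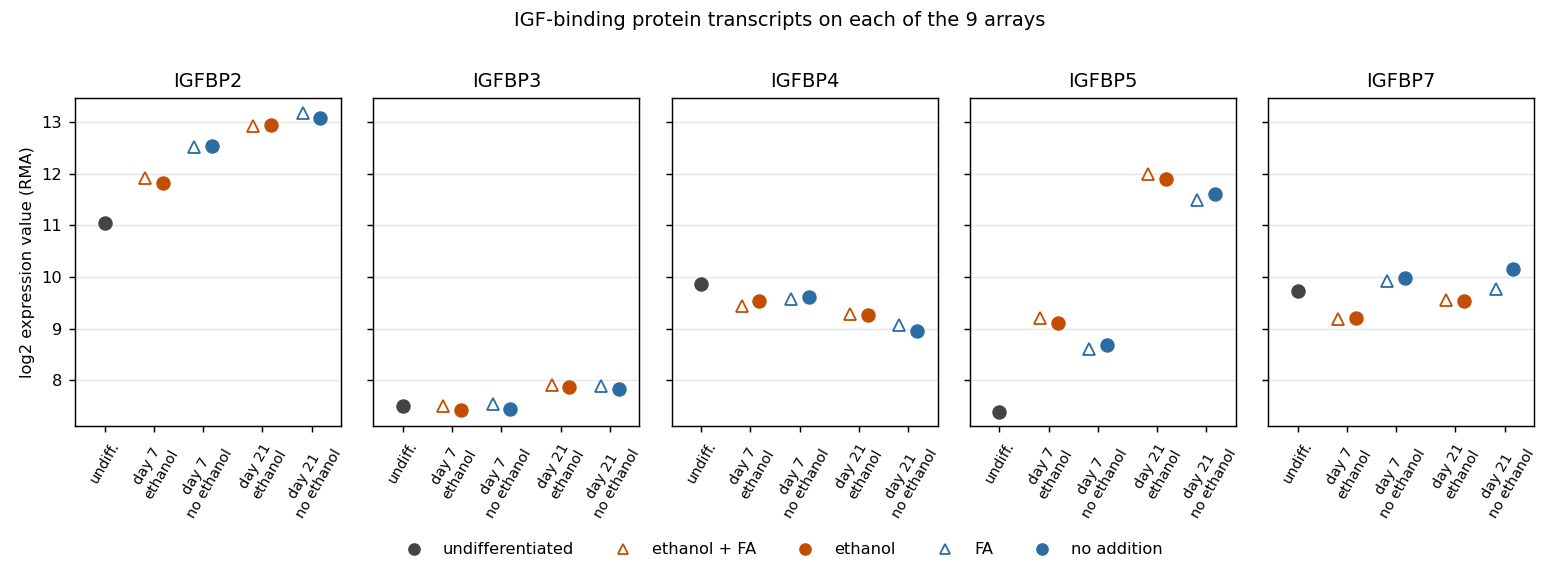
Log2 expression value (RMA, vertical axis) of each IGF-binding protein on each of the 9 single arrays, by stage and ethanol, with triangles for FA and circles for no FA. IGFBP5 spans 7.39 in undifferentiated cells to 11.99 at day 21, whereas IGFBP3 stays between 7.41 and 7.91.

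IGFBP5, a carrier that also binds extracellular matrix, read 7.39 in undifferentiated cells. At day 7 it read 9.20 with ethanol and FA, 9.10 with ethanol, 8.60 with FA and 8.68 with neither. At day 21 it read 11.99, 11.90, 11.50 and 11.61 in the same order of treatments. The 3 stages did not overlap, and its undifferentiated value was the only one under 7.71. The folds against undifferentiated cells that follow are set against this dim value, whereas both days lay above 7.71. In the fit, untreated embryoid bodies of day 7 exceeded undifferentiated cells by 1.28 ± 0.10 (SE), which is 2.43-fold with a 95% interval of 2.05 to 2.87 (adjusted p = 0.00223). At day 21 the difference was 4.13 ± 0.10, with a 95% interval of 14.9 to 20.7 around the 17.5-fold change (adjusted p = 6.17e-07). Day 21 exceeded day 7 by 2.85 ± 0.06, or 7.23-fold (95% interval 6.57 to 7.96, adjusted p = 5.32e-08), with single matched differences of 2.78 to 2.93 in 4 of 4 pairs.

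IGFBP2 read 11.05 in undifferentiated cells. The day 7 arrays read 11.93 with ethanol and FA, 11.82 with ethanol, 12.51 with FA and 12.54 with neither. The day 21 arrays read 12.93, 12.94, 13.18 and 13.09 in that order. As with IGFBP5, the stages did not overlap. In the fit, untreated embryoid bodies of day 7 exceeded undifferentiated cells by 1.35 ± 0.16 (2.55-fold, 95% interval 1.96 to 3.30, adjusted p = 0.00447). By day 21 the fitted excess was 2.18 ± 0.16 (4.53-fold, 95% interval 3.50 to 5.88, adjusted p = 6.63e-05). The step between the days was 0.83 ± 0.09 (1.78-fold, adjusted p = 0.000205), and the single pairs ran from 0.55 to 1.11.

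IGFBP4, the inhibitory carrier, moved the other way. It read 9.86 in undifferentiated cells. Day 7 values were 9.43 with ethanol and FA, 9.53 with ethanol, 9.57 with FA and 9.61 with neither, and day 21 values were 9.29, 9.27, 9.08 and 8.96. Each stage lay below the one before it without overlap. The fitted untreated level of day 7 differed from undifferentiated cells by -0.36 ± 0.14 and missed the threshold (adjusted p = 0.116). At day 21 the fitted untreated level was lower by 0.75 ± 0.14 than undifferentiated cells, a 1.69-fold decrease (adjusted p = 0.00493). IGFBP4 also fell by 0.39 ± 0.08 at day 21 relative to day 7 (adjusted p = 0.00579), lower in 4 of 4 pairs.

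IGFBP3, the main carrier in blood, read 7.49 in undifferentiated cells. At day 7 it read 7.51 with ethanol and FA, 7.41 with ethanol, 7.54 with FA and 7.44 with neither, on both sides of the undifferentiated value. The day 21 values were 7.91, 7.88, 7.89 and 7.84, all above every earlier array. The fitted untreated level of day 7 differed from undifferentiated cells by -0.05 ± 0.08 (adjusted p = 0.722). That of day 21 was higher than undifferentiated cells by 0.35 ± 0.08 (1.28-fold, adjusted p = 0.0104). IGFBP3 rose by 0.40 ± 0.05 at day 21 relative to day 7 (1.32-fold, adjusted p = 0.000238). All values before day 21 lay under 7.71, so it entered the test only through the group in which it was higher.

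IGFBP7 read 9.74 in undifferentiated cells. At day 7 it read 9.18 with ethanol and FA, 9.20 with ethanol, 9.92 with FA and 9.97 with neither. At day 21 it read 9.55, 9.53, 9.77 and 10.15. Both days lay partly above and partly below the undifferentiated array. Against undifferentiated cells the fitted untreated level differed by 0.18 ± 0.16 at day 7 (adjusted p = 0.479) and by 0.37 ± 0.16 at day 21 (adjusted p = 0.108). Day 21 differed from day 7 by 0.18 ± 0.09 (adjusted p = 0.131), higher in 3 of 4 pairs. Without the day 21 array with FA, the last 2 differences passed, at 0.48 (adjusted p = 0.0109) and 0.29 (adjusted p = 0.0088).

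Among the 5 members tested, 2 rose and 0 fell at day 7 relative to undifferentiated cells, against 6.68% of all tested genes that rose and 13.9% that fell. At day 21 relative to undifferentiated cells, 3 rose and 1 fell, against 16.6% and 21.2% of all genes. Between day 21 and day 7, 3 rose and 1 fell, against 26.3% and 22.6%. In both day 21 comparisons 1 of the 3 was IGFBP3, kept by the filter only through its day 21 arrays, and 2 others rose. The members' median differences were 0.18, 0.37 and 0.40, against -0.05, -0.06 and -0.01 over all genes. With each array centred on its own median, the genes called at day 7 numbered 550 higher and 2514 lower, against 818 and 1702 as deposited. Between the days the centred values gave 3856 higher and 2092 lower, against 3224 and 2771. The calls of IGFBP2, IGFBP3, IGFBP4 and IGFBP5 held with centred arrays.

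**Figure D2:**
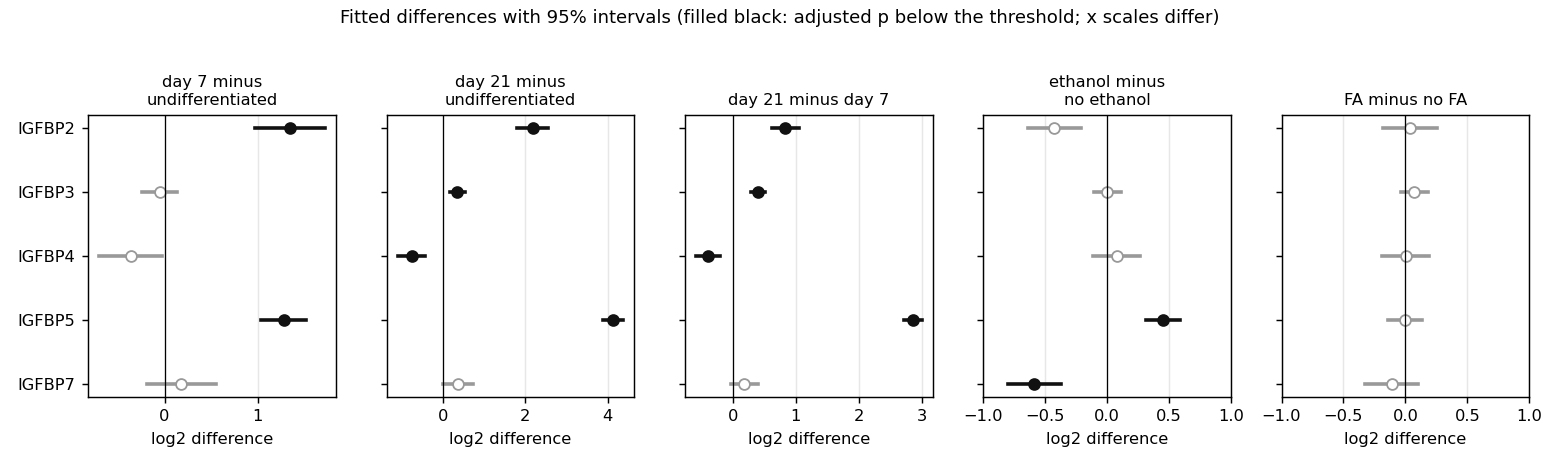
Fitted log2 differences of the 5 IGF-binding proteins (horizontal axes, scales differ) with 95% intervals, filled where the adjusted p is under 0.05. IGFBP5 and IGFBP2 lie to the right in the first 3 panels, and in the ethanol panel IGFBP5 is at 0.45 and IGFBP7 at -0.59.

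Some markers of other cell types moved between the days as well, when 26.3% of all tested genes rose and 22.6% fell. Of 5 tested mesenchyme markers among 10, PDGFRA, COL3A1 and POSTN rose, PDGFRA by 2.67 ± 0.09 (adjusted p = 2.99e-07), and the list mean was 7.21 to 7.28 at day 21, against 6.65 to 6.82 at day 7. PDGFRA and POSTN exceeded 7.71 only at day 21, so they entered the test only through the group in which they were high. Of 8 neural progenitor markers, PAX6, SOX3 and ZIC1 rose, PAX6 by 4.32 ± 0.11 (adjusted p = 1.08e-07), while FABP7 and OTX2 fell. These neural shares, 37.5% and 25%, were near those of all genes. PAX6 and ZIC1 likewise exceeded 7.71 only at day 21, where PAX6 read 10.4 to 10.8, against 6.09 to 6.52 at day 7, and FABP7 exceeded it only in undifferentiated cells. The neural list mean was 8.43 to 8.68 at day 21, against 8.02 to 8.11 at day 7. The part of these cell types in the rise of IGFBP5, IGFBP2 and IGFBP3 was not tested. On all 9 arrays, 0 of 8 endothelial and 0 of 5 trophoblast markers exceeded 7.71. Of the 2 tested markers of visceral endoderm, yolk sac and liver, 0 passed.

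With ethanol, IGFBP5 was higher and IGFBP7 lower in 4 of 4 matched pairs of arrays, and both differences passed the test. IGFBP5 rose by 0.45 ± 0.06 with ethanol, 1.37-fold (95% interval 1.24 to 1.51, adjusted p = 0.029). IGFBP7 fell by 0.59 ± 0.09, 1.50-fold (adjusted p = 0.0413). IGFBP2 was lower with ethanol in all 4 pairs, but its difference of -0.43 ± 0.09 missed the threshold (adjusted p = 0.0929). Over all genes tested, 0.563% rose and 0.122% fell with ethanol, and the median over all genes was 0.02, against 0.00 over the members.

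**Figure D3:**
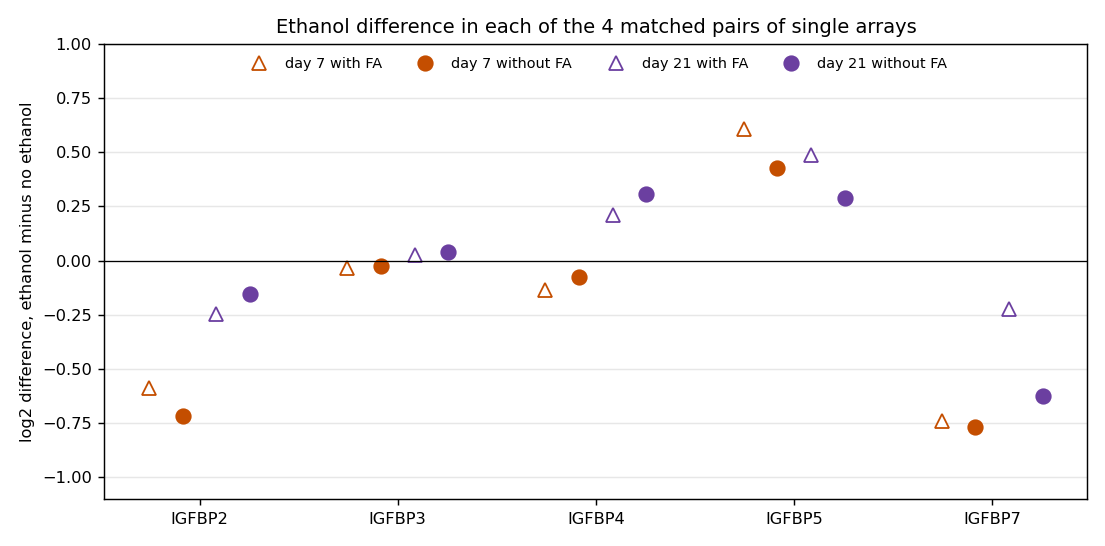
Log2 difference, ethanol minus no ethanol (vertical axis), in each of the 4 pairs of single arrays that share day and FA. IGFBP5 is above 0 in 4 of 4 pairs, IGFBP2 and IGFBP7 are below 0 in 4 of 4, and IGFBP4 changes sign between the days.

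The IGFBP5 difference at day 7 was 0.61 with FA and 0.43 without FA. At day 21 it was 0.49 with FA and 0.29 without FA. The lowest ethanol array exceeded the highest array without ethanol on each day. Averaged over the pairs of a day, the excess was 1.43-fold at day 7 and 1.31-fold at day 21. The step with ethanol was small beside the 7.23-fold step between the days, and IGFBP5 ranked 61st among the genes that were higher with ethanol. Its call was lost when any 1 of 6 arrays was left out, namely those of day 7 with FA or untreated and all 4 of day 21. The adjusted p was then 0.0897 to 0.159, with estimates of 0.42 to 0.50.

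IGFBP7 differed by -0.74 with FA and by -0.77 without FA at day 7. At day 21 the differences were -0.22 with FA and -0.62 without FA. Both ethanol arrays lay under both arrays without ethanol on each day. All 4 ethanol arrays lay under the undifferentiated value of 9.74 and all 4 without ethanol lay above it. The mean decrease was 1.69-fold at day 7 and 1.34-fold at day 21. IGFBP7 had the 14th largest decrease with ethanol of all genes tested. Its call was lost without any 1 of 6 arrays, those of day 7 with ethanol and FA, with FA or untreated, and those of day 21 with ethanol and FA, with ethanol or untreated. Its adjusted p was then 0.0573 to 0.189, with estimates of -0.66 to -0.53. Without the day 7 ethanol array lacking FA, which correlated least with the others, IGFBP7 stood at -0.53 (adjusted p = 0.0406) and IGFBP5 at 0.46 (adjusted p = 0.0257).

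IGFBP2 differed by -0.59 with FA and -0.72 without FA at day 7, and by -0.25 and -0.15 at day 21. Its ethanol arrays lay under those without ethanol on each day, and all ethanol arrays of day 21 lay above all arrays of day 7. The 95% interval of its ethanol ratio was 0.641 to 0.865 (unadjusted p = 0.00191).

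IGFBP4 differed by -0.14 with FA and -0.08 without FA at day 7, and by 0.21 and 0.31 at day 21. The sign thus changed between the days, and the fitted ethanol difference was 0.08 ± 0.08 (adjusted p = 0.681), with a 95% interval of 0.922 to 1.20 for the ratio. IGFBP3 differed by -0.04 to 0.04, and its ratio had a 95% interval of 0.929 to 1.08 (adjusted p = 0.994). Of the marker lists for pluripotent cells, mesenchyme, neural progenitors and visceral endoderm, 0 tested genes passed for ethanol. Over all genes 0.563% rose and 0.122% fell. An unadjusted limma p under 0.05 was held by 3 of 10, 1 of 5, 1 of 8 and 0 of 2 in that order. Over all 12254 genes 2144 did so.

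Put in order of level, the day and ethanol groups stood apart for IGFBP5, IGFBP2 and IGFBP4. For IGFBP5 the order was undifferentiated, then day 7 with ethanol above day 7 without it (9.15 against 8.64), then day 21 with ethanol above day 21 without it (11.9 against 11.6). For IGFBP2 the ethanol groups were the lower ones, at 11.9 against 12.5 on day 7 and 12.9 against 13.1 on day 21. IGFBP4 was lowest at day 21, where ethanol arrays averaged 9.28 against 9.02 without ethanol. For IGFBP3 the undifferentiated array and both day 7 groups overlapped, as did both day 21 groups. For IGFBP7 the arrays without ethanol overlapped across the days, at 9.96 for day 21 and 9.94 for day 7.

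FA was followed by no change that passed. The members' fitted differences ran from -0.11 for IGFBP7 to 0.07 for IGFBP3, each with an adjusted p of 1. Over all genes limma called 0%, with 121 genes under an unadjusted p of 0.05, and 0 of the 5 members were among those. IGFBP3 was higher with FA in 4 of 4 pairs, by 0.04 to 0.10. IGFBP7 at day 21 without ethanol had the widest single FA difference, -0.38. The widest 95% interval of an FA ratio belonged to IGFBP2, at 0.884 to 1.19.

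The difference between ethanol responses of the days was tested as an interaction. It was 0.45 ± 0.10 for IGFBP2, meaning a smaller decrease at day 21 than at day 7 (unadjusted p = 0.00293, adjusted p = 0.292). For IGFBP4 it was 0.37 ± 0.11 (unadjusted p = 0.0128, adjusted p = 0.462) and for IGFBP7 0.33 ± 0.15 (adjusted p = 0.733). IGFBP5 and IGFBP3 had -0.13 ± 0.11 and 0.06 ± 0.09. None of the 5 members passed, and 0.00816% of all genes did. Of 10 pluripotent markers 0 passed, but 7 had an unadjusted limma p under 0.05, 6 higher and 1 lower. The mesenchyme, neural and visceral endoderm lists had 0 of 5, 2 of 8 and 0 of 2, against 917 of all 12254 genes. Without the day 7 array given both ethanol and FA, the IGFBP2 interaction passed at 0.49 (adjusted p = 0.0182). For FA by day and for ethanol by FA, 0% of genes passed by limma, with 1496 and 100 genes under an unadjusted p of 0.05 and 0 members among them.

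The cluster that IGFBP6 shares with C12orf57 read 8.28 in undifferentiated cells. At day 7 it read 8.28 with ethanol and FA, 8.53 with ethanol, 8.36 with FA and 8.29 with neither. At day 21 it read 8.37, 8.26, 8.30 and 8.16. All 9 values lay between 8.16 and 8.53, and the day ranges overlapped.

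The proteins that surround the IGF-binding proteins were read from lists of 48 gene symbols, of which 41 had a cluster of their own and 33 were tested. NOV, an older name of CCN3, was counted apart from it and without a cluster. Between day 21 and day 7, 8 of the 33 rose (24.2%) and 9 fell (27.3%), near the 26.3% and 22.6% of all genes. At day 7 relative to undifferentiated cells 6 rose and 3 fell (18.2% and 9.09%, against 6.68% and 13.9% of all genes). At day 21 relative to undifferentiated cells 11 rose and 5 fell (33.3% and 15.2%, against 16.6% and 21.2% of all genes). ADAM12 and IRS1, 2 of the genes that rose in both day 21 comparisons, passed the filter only through day 21 arrays. The lists' medians were -0.10 between the days, 0.06 at day 7 and -0.02 at day 21. With ethanol and with FA 0 of the 33 passed by limma. Over all genes 0.563% rose and 0.122% fell with ethanol, and 0% passed for FA. An unadjusted p under 0.05 was held by 7 and 0 of the 33, against 2144 and 121 of all 12254 genes.

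**Figure D4:**
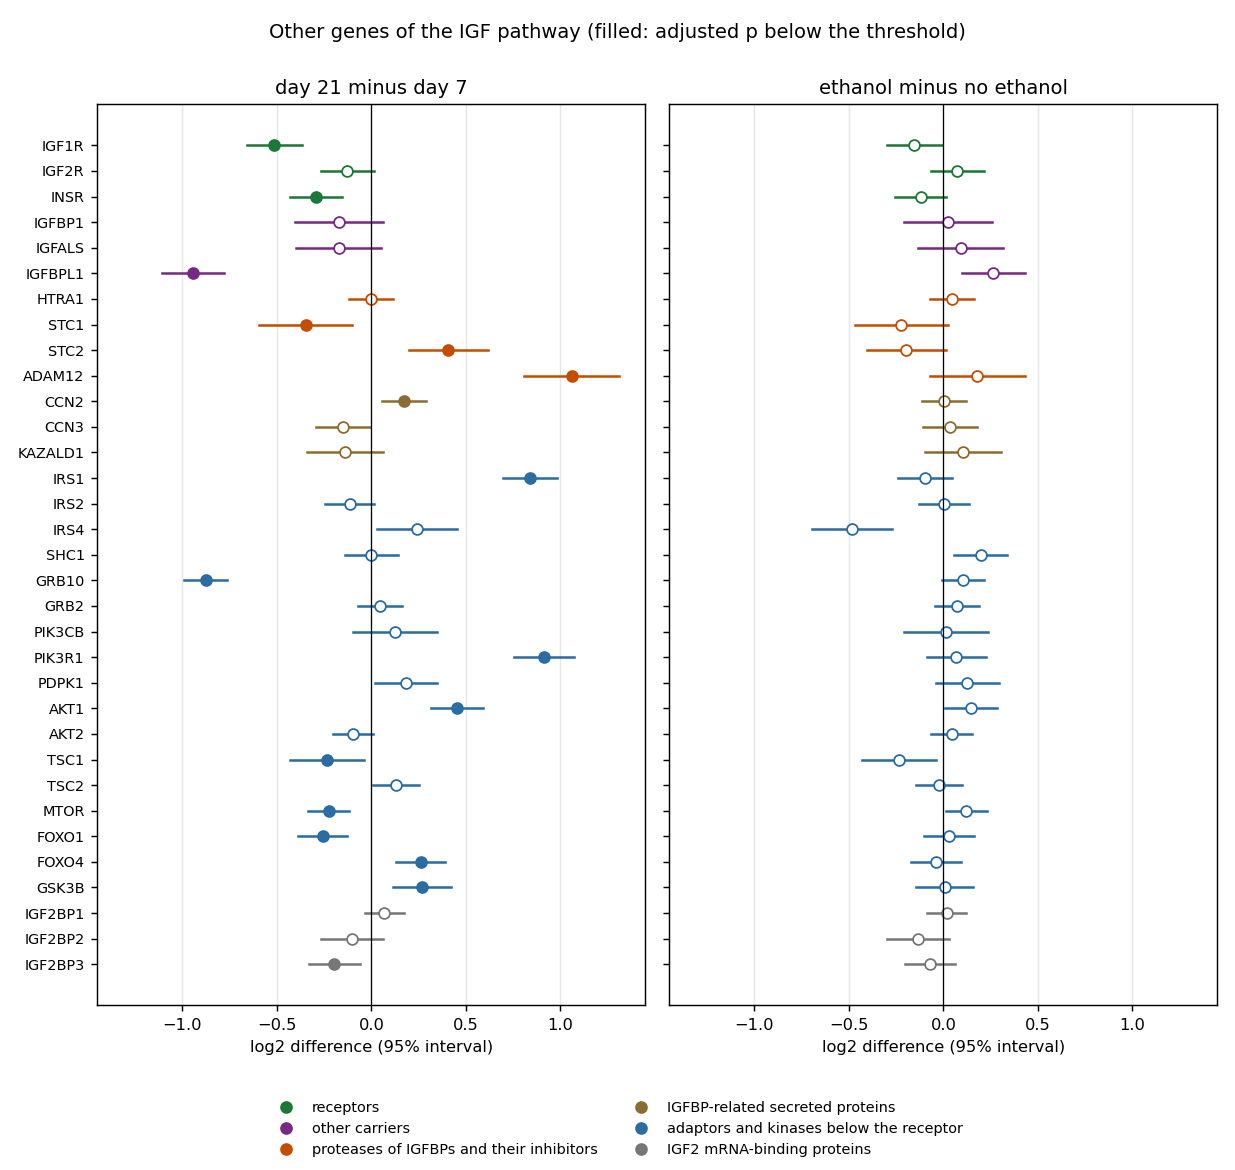
Fitted log2 differences with 95% intervals of the 33 tested genes around the IGF-binding proteins, day 21 minus day 7 on the left and ethanol minus no ethanol on the right, filled where the adjusted p is under 0.05. GRB10 and IGFBPL1 lie furthest left and ADAM12 furthest right between the days, and the ethanol panel has 0 filled points.

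Among the ligands, IGF1 stayed between 5.73 and 5.90 on all 9 arrays, under 7.71, and was not tested. IGF2 shares a cluster with INS and their readthrough gene, so no value is given to either. That shared cluster read 7.55 in undifferentiated cells, 7.71 to 7.79 at day 7 and 7.92 to 8.06 at day 21. Its stages did not overlap, and it was not tested. The receptor IGF1R, which carries the growth signal, rose by 0.72 ± 0.11 at day 7 relative to undifferentiated cells (1.65-fold, adjusted p = 0.00658). It fell by 0.51 ± 0.06 at day 21 relative to day 7 (adjusted p = 0.000318), leaving a difference of 0.21 from undifferentiated cells (adjusted p = 0.172). The insulin receptor INSR had the same course, with a rise of 0.38 at day 7 (adjusted p = 0.0372) and a fall of 0.29 ± 0.06 between the days (adjusted p = 0.00442). The day 7 call of INSR was lost with arrays centred on their medians (adjusted p = 0.0726) and without any 1 of 6 arrays, those of day 7 with FA or untreated and all 4 of day 21 (adjusted p = 0.0511 to 0.173). IGF2R, which takes IGF2 up for degradation, differed by -0.13 between the days (adjusted p = 0.115).

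Of the other carriers, IGFBP1 stayed between 7.84 and 8.35 and IGFALS between 7.85 and 8.41, and neither passed a test, although IGFBP1 did between the days without the day 7 array given both ethanol and FA (-0.27, adjusted p = 0.0209). IGFBPL1, an IGFBP-like secreted protein, fell by 0.94 ± 0.07 at day 21 relative to day 7 (adjusted p = 2.46e-05). It differed by 0.26 ± 0.07 with ethanol, higher in 4 of 4 pairs (adjusted p = 0.137). Of the 4 tested proteases and inhibitors, ADAM12, a protease that cuts IGFBP3 and IGFBP5, rose by 1.06 ± 0.11 at day 21 relative to day 7 (adjusted p = 0.000123). ADAM12 read at most 8.02 at day 21, against at most 6.98 at day 7, and passed the filter only through day 21 arrays. STC1, an inhibitor of the PAPPA proteases, rose by 1.63 ± 0.18 at day 7 relative to undifferentiated cells (3.10-fold, adjusted p = 0.00403). It fell by 0.35 ± 0.11 at day 21 relative to day 7 (adjusted p = 0.0264), a call that was lost with arrays centred on their medians (adjusted p = 0.0634). It was also lost without any 1 of 5 arrays, those with FA or untreated of either day and that of day 21 with ethanol and FA (adjusted p of up to 0.0863).

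Of the 17 tested adaptors and kinases below the receptor, 5 rose and 4 fell between the days (29.4% and 23.5%), near the 26.3% and 22.6% of all genes. PIK3R1, the regulatory subunit of PI3-kinase, rose by 0.91 ± 0.07 (adjusted p = 2.12e-05) and IRS1, an adaptor of the receptor, by 0.84 ± 0.06 (adjusted p = 2.05e-05), with 8.18 to 8.36 at day 21, against 7.25 to 7.46 at day 7. GRB10, an adaptor that dampens receptor signalling, fell by 0.88 ± 0.05 (adjusted p = 4.26e-06). IRS4, like IRS1 an adaptor, differed by -0.48 ± 0.09 with ethanol (adjusted p = 0.0646). IRS1 and IRS4 were chosen after their values were seen.

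The genes whose values over the 9 arrays followed each member most closely were ranked by Pearson's r among the 12254 genes tested. The 9 points share stage and array, so a gene that steps once between the days scores high. For IGFBP5 they were MEIS2 at 0.994, GREB1L at 0.994 and MEF2A at 0.992. For IGFBP2 they were CLIP3 at 0.992, TRIO at 0.981 and COX20 at 0.981. IGFBP4 was followed by CAD at 0.987, ERBB3 at 0.985 and CNOT3 at 0.985, and IGFBP3 by MAGI3 at 0.990, PCBP2 at 0.989 and MED12 at 0.987. IGFBP7 had looser neighbours, PIM1 at 0.911, EXOSC10 at 0.909 and KCTD7 at 0.904.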

How the data were processed

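Per the submitters' processing notes, the authors made the deposited log2 expression values with RMA, using Affymetrix Expression Console 1.3.1. The log base was inferred from the values, 2.49 to 14.3, with array medians of 7.67 to 7.76. RMA evens out the arrays' distributions, so a shift shared by most transcripts would not be seen, and it compresses dim differences. No source used here names the genome build of the annotation. Of 33297 transcript clusters, 19460 had 1 symbol, 1754 several and 12083 were unnamed here. Entrez IDs of 19429 were found in RefSeq's table, with 0 symbols changed. The brightest cluster by mean stood for each of the 18417 genes, of which 769 had several. Genes whose highest value exceeded the median of all values, 7.71, were tested, which removed 6163.

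An additive model (undifferentiated term, day, ethanol, FA) was fitted over 9 arrays with limma 3.58.1 (lmFit and eBayes) in R 4.3.3, with 4 residual and 3.94 prior degrees of freedom, and checked on simulated data. Interactions were added singly. Ethanol, FA and day effects average 4 matched differences. Differentiation effects set the fitted untreated level of a day, estimated from all 8 embryoid body arrays, against the single undifferentiated array, taken to vary like the others. Adjusted p-values are Benjamini-Hochberg over 12254 genes. The number of arrays limits the precision.

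The members and lists were chosen with earlier results of these data known. Named besides the members were all ligands, receptors and other carriers, list genes past the threshold for ethanol, FA or an interaction, those with a day or differentiation effect of at least 1 (log2), and for each member the 3 genes of highest Pearson r. Alternatives were the mean of all clusters, other filters, centred arrays, variance settings, other model terms and leaving out each array.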

Additional observations from a re-analysis of the deposited data

Results flagged for a closer look

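For 4 responses the pairs of one group pointed one way and the pairs of the other group the opposite way, and the interaction test of limma passed for 0 of them. The ethanol difference of IGFBP4 was 0.31 and 0.21 at day 21, against -0.08 and -0.14 at day 7, an interaction of 0.37 (unadjusted p = 0.0128, adjusted p = 0.462). The FA difference of IGFBP4 was 0.12 and 0.02 at day 21, against -0.04 and -0.10 at day 7, an interaction of 0.14 (adjusted p = 0.682). The FA difference of IGFBP5 was 0.10 and 0.09 with ethanol, against -0.08 and -0.11 without ethanol, an interaction of 0.19 (adjusted p = 0.994). The ethanol difference of IGFBP3 was 0.04 and 0.03 at day 21, against -0.03 and -0.04 at day 7, an interaction of 0.064 (adjusted p = 0.992). Each value is a difference between 2 single arrays.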

How the results depend on the processing

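The day and differentiation calls of IGFBP2, IGFBP4 and IGFBP5 held under every alternative that gave a value, and those of IGFBP3 wherever the filter kept it. Over the values of members and named genes, 1400 comparisons with an alternative kept their side of the threshold, 36 lost it, 6 gained it and 0 reversed. The ethanol calls depended most on the settings. The count of genes called for ethanol, 84 as reported, was 54 without a filter, 155 with an intensity trend, 215 without the FA term and 188 with an ethanol-by-day term. Of the members, 0 were called lower with ethanol without a filter and 0 with centred arrays, where IGFBP7 had an adjusted p of 0.0552 in each. With the ethanol-by-day term 2 were, IGFBP7 and IGFBP2 (adjusted p = 0.0237). Leaving out single arrays gave 0 to 212 genes for ethanol, highest without the day 7 ethanol array lacking FA, with 0 to 1 members higher and 0 to 1 lower. At most 3 genes were called for ethanol without any 1 of the 6 arrays whose loss cost IGFBP5 its call. For ethanol by day, leaving out single arrays gave 0 to 1111 genes and 0 to 1 members higher. The most came without the day 7 array given both ethanol and FA. Without a filter 0 genes were called for ethanol by day. Genes called at day 7 against undifferentiated cells, 2520 as reported, ranged from 548 without the untreated day 7 array to 3851 without the day 7 ethanol array lacking FA, with 1286 without the day 7 array with FA. The causes were not tested. INSR and GRB10 at day 7 and STC1 between the days lost their calls under some of these settings. Differentiation effects without the undifferentiated array could not be given. No pairing of arrays by replicate was possible because the labels carry no replicate numbers. The matched differences share day, ethanol or FA, which enter the model as terms.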
